A study of Mus musculus with 6 samples.

Results

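Sprr1a, Ecrg4, Adgra1, Slc13a4, Ncam1 and Uchl1 are 6 mouse genes better known from skin, injured nerve, brain, choroid plexus and neurons than from heart muscle. They were chosen by their measured array signals, which stood far higher in heart ventricles of Tead1 icKO mice than in those of control mice. They are 6 of 20145 named genes on the array, and all 9 non-control probes whose RefSeq accession belongs to them, of 55681 non-control probes, are described here. Of those 9 probes, 8 passed the filter on dim signals and 1, a second Adgra1 probe, did not. Because the members were picked for this rise, their differences between groups are a description and carry no test.

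Messenger RNA was measured on 6 one-colour Agilent arrays, each with the ventricle of 1 male C57bl/6j mouse aged 11 to 12 weeks. The 3 Tead1 icKO mice (icKO below) carried the Tead1F/F alleles with Myh6-CreER, a tamoxifen-dependent Cre recombinase made in cardiomyocytes, and were given tamoxifen. The 3 control mice were Tead1 flox animals that were given tamoxifen too. The labels name no Cre for them, so loss of Tead1 and presence of the Cre transgene cannot be told apart. Ventricle tissue holds many cell types, and in such bulk RNA a change in the number of cells of a type and a change of RNA per cell cannot be told apart.

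Tead1 is a DNA-binding factor that recruits the coactivators YAP and TAZ to MCAT elements, which are common in cardiac and muscle promoters. Adult heart muscle that is injured or overloaded reactivates genes that are otherwise quiet there, and some of these are shared with damaged nerve. Sprr1a encodes a small proline-rich protein of the cornified envelope of skin, and it is known to be made by injured sensory neurons and by cardiomyocytes exposed to cytokines that act through the receptor chain gp130. Ecrg4 encodes a secreted precursor known from choroid plexus and named for its silencing in oesophageal cancer. Adgra1 is an orphan adhesion G protein-coupled receptor of the brain, and Slc13a4 is a sodium-coupled sulfate transporter of choroid plexus and placenta. Ncam1 is the neural cell adhesion molecule, which spreads over the surface of muscle fibres that lose their nerve. Uchl1 is a ubiquitin C-terminal hydrolase abundant in neurons, where it serves as the marker PGP9.5.

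The promoters of 5 members are printed because Tead1 can act at promoters and these genes stood higher together. Sequence outside these promoters was not searched. Each runs from 250 bases before to 50 bases after the gene's start in RefSeq, build GRCm38.p6, and reads 5′ to 3′ along the gene. They lie at chr3:92485832-92486131 on the minus strand (Sprr1a), chr1:43730352-43730651 on the plus strand (Ecrg4), chr7:139833924-139834223 on the plus strand (Adgra1), chr6:35308077-35308376 on the minus strand (Slc13a4) and chr5:66675871-66676170 on the plus strand (Uchl1). Capitals mark the matches found among 5 motifs searched on both strands.
Sprr1a: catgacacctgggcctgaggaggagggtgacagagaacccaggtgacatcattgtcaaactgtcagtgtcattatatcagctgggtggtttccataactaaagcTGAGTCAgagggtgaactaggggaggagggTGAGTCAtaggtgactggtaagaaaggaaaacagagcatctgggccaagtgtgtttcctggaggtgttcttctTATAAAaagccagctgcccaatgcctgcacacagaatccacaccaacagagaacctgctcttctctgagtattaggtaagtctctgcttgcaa
Ecrg4: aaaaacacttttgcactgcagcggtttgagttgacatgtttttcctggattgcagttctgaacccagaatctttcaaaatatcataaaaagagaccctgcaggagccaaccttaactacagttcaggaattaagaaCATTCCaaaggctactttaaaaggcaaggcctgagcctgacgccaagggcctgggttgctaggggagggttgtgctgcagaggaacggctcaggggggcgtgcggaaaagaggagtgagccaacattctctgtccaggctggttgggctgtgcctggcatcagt
Adgra1: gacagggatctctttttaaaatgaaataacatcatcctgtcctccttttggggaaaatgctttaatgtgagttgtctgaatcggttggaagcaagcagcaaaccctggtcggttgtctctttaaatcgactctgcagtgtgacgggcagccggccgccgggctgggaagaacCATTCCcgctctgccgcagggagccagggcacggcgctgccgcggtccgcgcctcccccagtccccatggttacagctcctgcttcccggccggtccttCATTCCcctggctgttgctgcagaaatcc
Slc13a4: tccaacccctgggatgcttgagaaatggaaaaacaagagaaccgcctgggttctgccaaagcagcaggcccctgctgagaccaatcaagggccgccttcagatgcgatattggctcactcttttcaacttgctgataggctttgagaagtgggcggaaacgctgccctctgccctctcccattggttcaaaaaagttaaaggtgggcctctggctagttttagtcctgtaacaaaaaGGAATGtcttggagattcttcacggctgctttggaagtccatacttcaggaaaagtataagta
Uchl1: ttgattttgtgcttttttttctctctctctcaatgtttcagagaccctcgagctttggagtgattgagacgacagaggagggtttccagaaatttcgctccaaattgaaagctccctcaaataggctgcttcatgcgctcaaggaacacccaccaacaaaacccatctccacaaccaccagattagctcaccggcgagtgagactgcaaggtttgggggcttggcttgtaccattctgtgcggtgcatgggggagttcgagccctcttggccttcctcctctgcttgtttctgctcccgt

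The motifs were the MCAT element, the AP-1 site, the STAT site, the TATA box and the CArG box. The MCAT element, CATTCC, was present in 3 of these 5 promoters, against 14.7% of the 32851 promoters in the table. In Ecrg4 it lay at positions -114 to -109 from the start, in Adgra1 at -78 to -73 and again at 22 to 27, and in Slc13a4, on the opposite strand as GGAATG, at -13 to -8. Of all promoters, 1.36% hold it more than 1 time, as Adgra1 does. The AP-1 site, TGANTCA, was found 2 times in Sprr1a, at -146 to -140 and -116 to -110, and in 7.81% of all promoters. A TATA box, TATAAA, stood at -43 to -38 in Sprr1a, and 13.6% of all promoters have it. The STAT site TTCNNNGAA and the CArG box, found in 8.3% and 1.63% of all promoters, were in none of the 5. The matches do not overlap each other, and a match says only that these letters are in this window, not that a factor binds there.

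Signals are given below as log2 of the processed signal relative to the 75th percentile of the same array, so that 0 is the 75th percentile and -5 lies close to the darkest spots. A probe counts as detected where the scanner software marked it well above background. Each array held 62976 spots, between 47.9% and 50.9% of probes were detected, and 0 spots were saturated. Of 22283 features tested with limma, 9880 differed at a Benjamini-Hochberg adjusted p under 0.05 (44.3%), 3541 of them higher and 6339 lower in icKO. With median scaling the split was 4355 higher and 3617 lower, and with spike-in scaling 7110 and 1647, since these scalings add 0.16 and 0.44 to every log2 difference. The median feature stood at -0.14. Among 12969 named genes tested, 2615 were called higher (20.2%) and 3594 lower (27.7%), and in 3499 (27.0%) every icKO array lay above every control array. Tead1 itself gave a difference of -0.40 ± 0.11 (SE; adjusted p = 0.0304, limma, 3 arrays against 3), but its other probes gave -0.43 and -0.19 and their place relative to the deleted part is not known here. With spike-in scaling the sign of the Tead1 difference turned (0.04). Its call was lost with median scaling (-0.24), without control replicate 1 (-0.35), without control replicate 3 (-0.38), without icKO replicate 2 (-0.36) and without icKO replicate 3 (-0.37). It was lost too with the authors' value table (adjusted p = 0.0502), the replicate block (adjusted p = 0.0519), all probes kept however dim (adjusted p = 0.122) and the filter of at least 1 array (adjusted p = 0.0552).

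**Figure D1:**
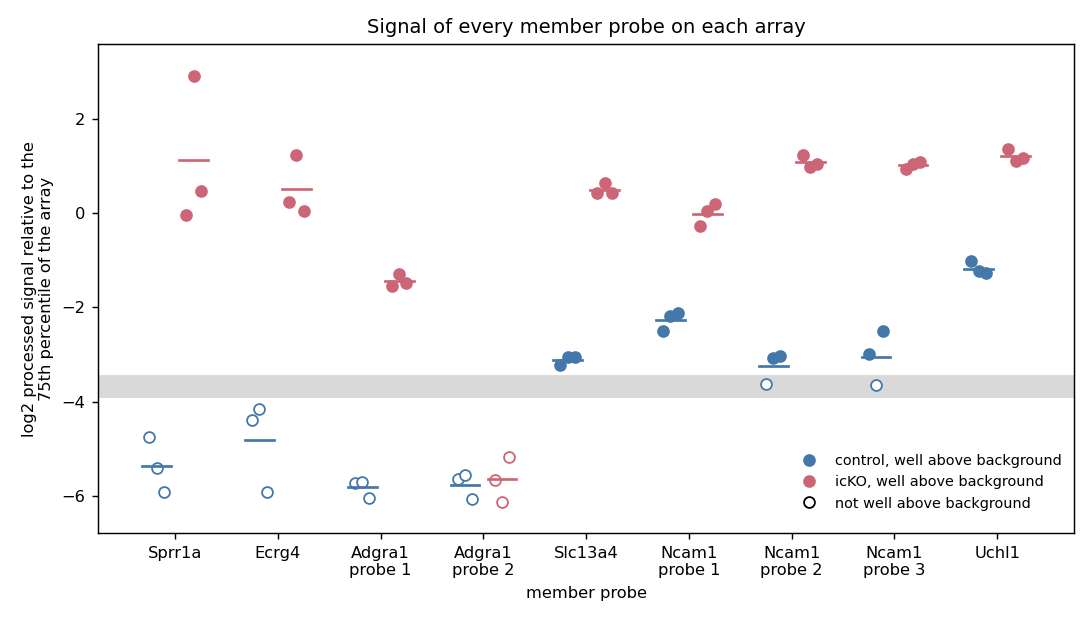
Each point is 1 probe on 1 array, as log2 processed signal relative to the array's 75th percentile, with control arrays in blue and icKO arrays in red, replicates 1 to 3 from left to right, and short lines at the group means. Open points were not well above background, and the grey band spans the lowest detected signals of the 6 arrays. In 8 of the 9 probes every icKO point lies above every control point, and the second Adgra1 probe stays dark on all arrays.

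The members fell into a group that was dark in control ventricles and a group that was already detected there. The probes of Sprr1a and Ecrg4 and the first Adgra1 probe were above background on 0 of 3 control arrays and on 3 of 3 icKO arrays. That pattern held for 319 of the 55681 probes (0.573%), which covered 216 named genes, and 359 probes showed the opposite pattern. Slc13a4 and Uchl1 were detected on all 6 arrays, and each of the 3 Ncam1 probes was detected on at least 2 of 3 control arrays. The description "switched on" therefore fitted 3 of the 6 genes on these arrays, and the other 3 were raised from a level that could be measured.

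Sprr1a showed the largest difference of the 6 and also the least even one. Its processed signal was 7.03, 5.41 and 3.55 units on control arrays 1 to 3 and 305, 2650 and 407 units on icKO arrays 1 to 3. On the relative log2 scale these were -4.75, -5.42 and -5.92 in controls and -0.03, 2.93 and 0.48 in icKO. The icKO 2 heart stood 2.45 above the next icKO heart, yet the lowest icKO value still lay 4.72 above the highest control value. Group means were -5.37 ± 0.59 and 1.13 ± 1.58 (SD, n = 3 each), a difference of 6.49 ± 0.98 (SE) that rests on unmeasured control values. Counting only what the scanner could detect, Sprr1a was at least 26.7-fold brighter in icKO. This bound sets the icKO mean against, on each control array, the higher of the lowest detected signal of that array and the probe's own signal, and bounds below were made the same way. Without icKO replicate 2 the bound was 14.3-fold, and without any other array it lay between 24.6-fold and 39.8-fold. By this bound Sprr1a ranked 3 among the 216 genes, after Egr2 and Star, and the median bound of these genes was 2.27-fold.

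Of the other genes of the cornified envelope that could be tested, 0 were called higher. Of 26 listed besides Sprr1a, 23 had a named probe and 7 passed the filter on dim signals. Of these 7, 4 fell and 0 rose, beside a background of 27.7% lower and 20.2% higher, and their median difference was -0.64, where all features had -0.14. Sprr1b, the nearest relative of Sprr1a, was not above background on any array. Tgm3, a transglutaminase that crosslinks envelope proteins, fell by 0.64 ± 0.09 (SE, adjusted p = 0.00272, limma) and Ppl, the envelope scaffold periplakin, fell by 0.91 ± 0.18 (adjusted p = 0.00983). Krt16, a keratin of stressed skin, was lower by -0.40 ± 0.09 (adjusted p = 0.015), a call lost without control replicate 2 (-0.36) or icKO replicate 3 (-0.36) and with median (-0.24) and quantile scaling (-0.27), and turned in sign with spike-in scaling (0.04). Spike-in scaling ended the calls of Tgm3 (-0.19) and Ppl (-0.47) too and left 0 genes of the list lower and 1 higher. Without control replicate 2 or without icKO replicate 3 the count of lower genes was 2.

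The Sprr2a2 probes disagreed with each other, and this gene is named after its values were seen. Its brightest probe lay at 7.90, 7.80 and 7.73 in controls and 7.49, 7.70 and 7.70 in icKO, a difference of -0.18 (adjusted p = 0.209, limma). Another probe was undetected on all 3 control arrays, at -5.84, -4.20 and -5.31, and detected at -1.98, -3.31 and -1.53 in icKO, at least 2.53-fold brighter. The remaining probe was dark on all 6 arrays. The mean of its kept probes gave 1.33, so the direction for this gene depends on the probe. The Sprr2 genes are near-identical copies of each other, and a probe may read more than 1 of them.

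Genes that injured peripheral nerve turns on gave both rises and missing signals. Of 28 listed besides Sprr1a, 18 were tested, 8 rose and 2 fell, shares of 44.4% and 11.1% beside 20.2% and 27.7% of named genes, with a median difference of 0.42. Spike-in scaling gave 14 higher and 0 lower. Atf3, a stress transcription factor of injured neurons, rose by 2.09 ± 0.27 (SE, adjusted p = 0.0021, limma), and Cd44, a hyaluronan receptor, rose by 1.88 ± 0.18 (adjusted p = 0.000768). Nrg1 and Tubb3, named after their values were seen, rose by 2.72 ± 0.46 and 2.55 ± 0.43 (adjusted p = 0.00508 and 0.00511), with Tubb3 detected on 2 of 3 controls. Bdnf, a neurotrophin, and Gadd45a, a growth arrest gene, fell by 0.63 ± 0.12 and 1.09 ± 0.21 (adjusted p = 0.00703 and 0.00794), calls that spike-in scaling ended (-0.19 and -0.65). Gap43, Sox11, Npy and Vip, which are prominent in regenerating neurons, were not above background on any array.

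In the gp130 pathway, through which Sprr1a is known to be induced in heart muscle, some ligand, receptor and adaptor genes rose, and the gp130 gene itself did not pass. Of 20 genes tested, 6 rose and 2 fell (30% and 10%, beside 20.2% and 27.7% of named genes), with a median of 0.24, against 11 and 0 with spike-in scaling. Osmr, the oncostatin M receptor chain, rose by 1.1 ± 0.1 (adjusted p = 0.000756, limma) and Ptpn11, a phosphatase that docks on gp130, by 0.60 ± 0.10 (adjusted p = 0.00408). Il6st, which encodes gp130, differed by 0.08 ± 0.12 (adjusted p = 0.619). The transcription factor gene Stat3 differed by 0.39 ± 0.16 (adjusted p = 0.0846) and was called higher with quantile, spike-in, normexp and mean-of-probes settings and with the authors' value table, where adjusted p ranged from 0.00297 to 0.0447. Ctf1, the ligand cardiotrophin 1, was lower by -0.70 ± 0.18 (adjusted p = 0.0205) and Lifr, the LIF receptor, by -0.41 ± 0.11 (adjusted p = 0.0237). Ctf1 lost its call with spike-in scaling (-0.26), without control replicate 2 (-0.63) and without control replicate 3 (-0.70). Lifr turned in sign with spike-in scaling (0.03), and its call was lost with median scaling (-0.25), with the replicate block (adjusted p = 0.0648) and without control replicate 1 (-0.39), 2 (-0.40) or 3 (-0.44) or icKO replicate 3 (-0.42). The count of lower genes was 1 with the replicate block, without control replicate 1 or without icKO replicate 3, and 0 without control replicate 2 or 3. Il6st and Stat3 are named after their values were seen.

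Ecrg4 was the second of the genes that were dark in controls. Its probe lay at -4.39, -4.15 and -5.92 on control arrays and at 0.25, 1.25 and 0.05 on icKO arrays. The groups did not overlap and were 4.2 apart at their nearest values. Means were -4.82 ± 0.96 and 0.52 ± 0.64 (SD, n = 3 each), a fitted difference of 5.34 ± 0.67 (SE) and a bound of at least 17.5-fold, or 13.6-fold to 20.6-fold with any 1 array left out. Among the 216 genes dark in controls this bound ranked 6, and that of Adgra1 ranked 37. As with Sprr1a, the icKO 2 heart was the highest. That array was also higher by at least 1 than both other icKO arrays for 75 named genes, against 156 for icKO 1 and 63 for icKO 3, and whether the probe's single spot, the array or the mouse lay behind its Sprr1a value was not tested.

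Adgra1 was read by a pair of probes that disagreed. The first lay at -5.73, -5.70 and -6.04 in controls, none detected, and at -1.54, -1.28 and -1.48 in icKO, all detected. Its means were -5.82 ± 0.19 and -1.43 ± 0.14 (SD, n = 3 each), a fitted difference of 4.39 ± 0.13 (SE) and a bound of at least 4.53-fold. The groups were 4.16 apart at their nearest values. The second probe lay at -5.65, -5.57 and -6.07 in controls and -5.67, -6.13 and -5.17 in icKO, dark on all 6 arrays, and its difference was 0.11 ± 0.32. Both probes carry the same RefSeq transcript, and where they sit in it is not given in the files, so the rise of Adgra1 rests on the first.

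Other adhesion receptors moved in both directions. Of 29 listed besides Adgra1, 28 had a named probe and 15 were tested, 5 rose and 2 fell (33.3% and 13.3%, beside 20.2% and 27.7% of named genes), with a median of 0.13, against 7 and 1 with spike-in scaling. Of the paralogues of Adgra1, Adgra2, which acts with Wnt7 in brain blood vessels, rose by 1.25 ± 0.13 (adjusted p = 0.000955, limma) and Adgra3 differed by -0.22 ± 0.10 (adjusted p = 0.129). Adgrg3, a receptor of myeloid cells, rose by 2.09 ± 0.20 (adjusted p = 0.000768), and Adgrg1, known from brain development, by 0.78 ± 0.10 (adjusted p = 0.00201). Celsr2, a cadherin-type receptor of planar polarity, was detected in controls and not in icKO, at least 2.07-fold brighter in controls (adjusted p = 0.00155). Its call was lost under the wider filters on dim probes (-0.24), where the other Celsr2 probe represents the gene. Celsr1 was lower by -1.06 ± 0.14 (adjusted p = 0.00199), a call that spike-in scaling ended (-0.62).

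Slc13a4 was detected on every array and was among the most even members. Its probe lay at -3.23, -3.06 and -3.06 in controls and at 0.44, 0.65 and 0.43 in icKO. The 3 values of each group lay close together and the groups were 3.49 apart at their nearest values. Means were -3.12 ± 0.10 and 0.51 ± 0.13 (SD, n = 3 each), and the difference of 3.62 ± 0.09 (SE) was a 12.3-fold rise in signal. The control values lay close to the lowest detected signals of control arrays 1 to 3 (-3.53, -3.46 and -3.85). The fold therefore depends on the background correction, and with normexp the difference was 2.10.

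The other carriers of the SLC13 family gave little signal. Slc13a1 and Slc13a5, a renal sulfate carrier and a citrate carrier, were not above background on any array, and Slc13a2 was detected on 1 icKO array. Slc13a3, a dicarboxylate carrier, was detected on 1 of 3 controls and was higher by 1.78 ± 0.55 (adjusted p = 0.0407, limma). That call was lost with normexp (0.38), with the replicate block (adjusted p = 0.076), and on leaving out control 2 (1.77), control 3 (1.29), icKO 2 (1.42) or icKO 3 (1.81). Across 16 tested SLC13 and sulfate handling genes besides Slc13a4, 7 rose and 4 fell (43.8% and 25.0%, beside 20.2% and 27.7% of named genes), with a median of 0.02, against 8 and 3 with spike-in scaling. Sulf1 and Sulf2, which remove sulfate from heparan sulfate outside the cell, rose by 1.66 ± 0.17 and 1.51 ± 0.15 (adjusted p = 0.00103 and 0.000897), and Sumf1, which activates sulfatases, rose by 0.81 ± 0.12 (adjusted p = 0.00376). Ethe1 and Suox, mitochondrial enzymes that oxidise sulfide products and sulfite, fell by 1.60 ± 0.13 and 1.16 ± 0.10 (adjusted p = 0.000535 and 0.000587). Slc26a2, a sulfate carrier of cartilage, was detected in controls alone, at least 1.63-fold brighter there (adjusted p = 0.00143).

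Ncam1 had 3 probes, and all of them stood higher in icKO by different amounts. The first, assigned to transcript NM_001113204, lay at -2.51, -2.19 and -2.11 in controls and -0.27, 0.05 and 0.19 in icKO, a difference of 2.26 ± 0.18 (SE), or 4.79-fold. The other probes, both assigned to NM_010875, differed by 4.34 ± 0.21 and 4.07 ± 0.34, or 20.2-fold and 16.9-fold. The second lay at -3.62, -3.08 and -3.04 in controls and 1.25, 0.98 and 1.04 in icKO. The third, the brightest by its mean and used for the gene, lay at -2.99, -3.65 and -2.49 in controls and 0.94, 1.05 and 1.1 in icKO, with means of -3.04 ± 0.58 and 1.03 ± 0.08 (SD, n = 3 each). For both of these 1 control array was undetected, so their fold is less certain than that of the first probe, which was detected on all 6 arrays. No control value reached any icKO value, with gaps of 1.84, 4.02 and 3.44 for the 3 probes. Why the probes of the separate transcripts differ in size was not tested.

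Among other neural adhesion genes, rises and falls were about equal in number. Of 12 tested, 4 rose and 5 fell (33.3% and 41.7%, beside 20.2% and 27.7% of named genes), with a median of -0.12. Spike-in scaling gave 4 and 2, and the count of lower genes was 3 when control 1, control 3, icKO 2 or icKO 3 was left out. Ncam2, the paralogue of Ncam1, was not above background on any array. Of the enzymes that add polysialic acid to NCAM1, St8sia2 was not above background on any array and St8sia4 fell by 1.81 ± 0.21 (adjusted p = 0.00141, limma). Prnp, the prion protein gene, rose by 1.52 ± 0.11 (adjusted p = 0.000349). Cadm4, a synaptic and myelin adhesion molecule, fell by 1.67 ± 0.12 (adjusted p = 0.00035). Fgfr1, a receptor that NCAM1 can engage, was higher by 0.75 ± 0.15 (adjusted p = 0.00992), but 1 of its 3 probes gave -0.84 and the mean of its probes gave 0.25 (adjusted p = 0.158). Alcam was at least 1.68-fold brighter in icKO (adjusted p = 0.0102), a call lost with normexp (0.11). Mcam was lower by -0.49 ± 0.11 (adjusted p = 0.016), which did not pass with median (-0.33) or spike-in scaling (-0.05) or with the mean of its probes (-0.39). Nrcam, named after its values were seen, was at least 4.50-fold brighter in icKO (adjusted p = 0.0464, limma). It lay at -5.76, -5.17 and -5.26 in controls and at -3.17, -2.9 and 1.75 in icKO. This fold rests mostly on icKO 3, since icKO 1 and 2 lay near the lowest detected signals of their arrays (-3.64 and -3.91). The call was lost with normexp (1.24), with the replicate block (adjusted p = 0.0505) and without control replicate 1 (3.77), 2 (4.07) or 3 (4.02).

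Genes that skeletal muscle turns on when it loses its nerve were called in both directions beside Ncam1. Of 23 listed besides Ncam1, 13 were tested, 3 rose and 5 fell (23.1% and 38.5%, beside 20.2% and 27.7% of named genes), with a median of -0.20. Spike-in scaling left 3 higher and 0 lower, and the count of lower genes was 3 without control replicate 3. Nes, the intermediate filament nestin, rose by 3.37 ± 0.17 (adjusted p = 0.000163, limma), and Runx1, a transcription factor of denervated muscle, rose by 1.85 ± 0.16 (adjusted p = 0.000568) with 2 of 3 controls detected. Trim63, a muscle ubiquitin ligase, was higher by 0.45 ± 0.12 (adjusted p = 0.0262), a call lost with the replicate block (adjusted p = 0.0656) and without any 1 array but icKO replicate 2 (0.39 to 0.47). The acetylcholine receptor genes Chrna1, Chrnd, Chrng and Chrne, with Musk, Myog and Myh3, were not above background on any array. Rapsn, which clusters acetylcholine receptors, was lower by -0.66 ± 0.09 (adjusted p = 0.00296), a call that spike-in scaling ended (-0.22).

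Uchl1 had the smallest difference of the 6 and was detected on every array. Its probe lay at -1.02, -1.23 and -1.27 in controls and at 1.37, 1.11 and 1.17 in icKO. The groups were 2.13 apart at their nearest values. Means were -1.17 ± 0.14 and 1.22 ± 0.14 (SD, n = 3 each), a difference of 2.39 ± 0.11 (SE) and a 5.23-fold rise in signal. Among the fitted differences of 12969 named genes it ranked 217, where Sprr1a ranked 4, Ecrg4 11, Adgra1 31, Ncam1 39 and Slc13a4 65.

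Among the other genes that handle ubiquitin, the share called higher was close to that of all named genes. Of 22 tested besides Uchl1, 5 rose and 3 fell (22.7% and 13.6%, beside 20.2% and 27.7% of named genes), with a median of -0.06. Quantile normalization gave 8 higher and 1 lower, and spike-in scaling 8 and 0. The count of higher genes was 3 with the replicate block, without control replicate 1 or 2, and without any of the 3 icKO arrays. Of the other C-terminal hydrolases, Uchl3 was not above background on any array, Uchl4 fell by 0.83 ± 0.10 (adjusted p = 0.00186, limma) and Uchl5 differed by 0.16 ± 0.10 (adjusted p = 0.25). Uchl3 and Uchl4 are near-identical copies, so which of them the Uchl4 probe reads is uncertain, and spike-in scaling ended its call (-0.39). Uchl5 was called higher with spike-in scaling (0.60) and normexp (0.26). The deubiquitinases Otud1, Usp11 and Usp7 rose by 1.98 ± 0.30, 0.81 ± 0.10 and 0.50 ± 0.09 (adjusted p = 0.00345, 0.00166 and 0.00737). Uba1, the ubiquitin-activating enzyme, was lower by -0.39 ± 0.09 (adjusted p = 0.0172) and turned to 0.05 with spike-in scaling. Its call was also lost with median (-0.23) and quantile scaling (-0.25), normexp (-0.22), the authors' value table (-0.28) and the mean of its probes (-0.18), and without control replicate 2 (-0.39) or 3 (-0.36).

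**Figure D2:**
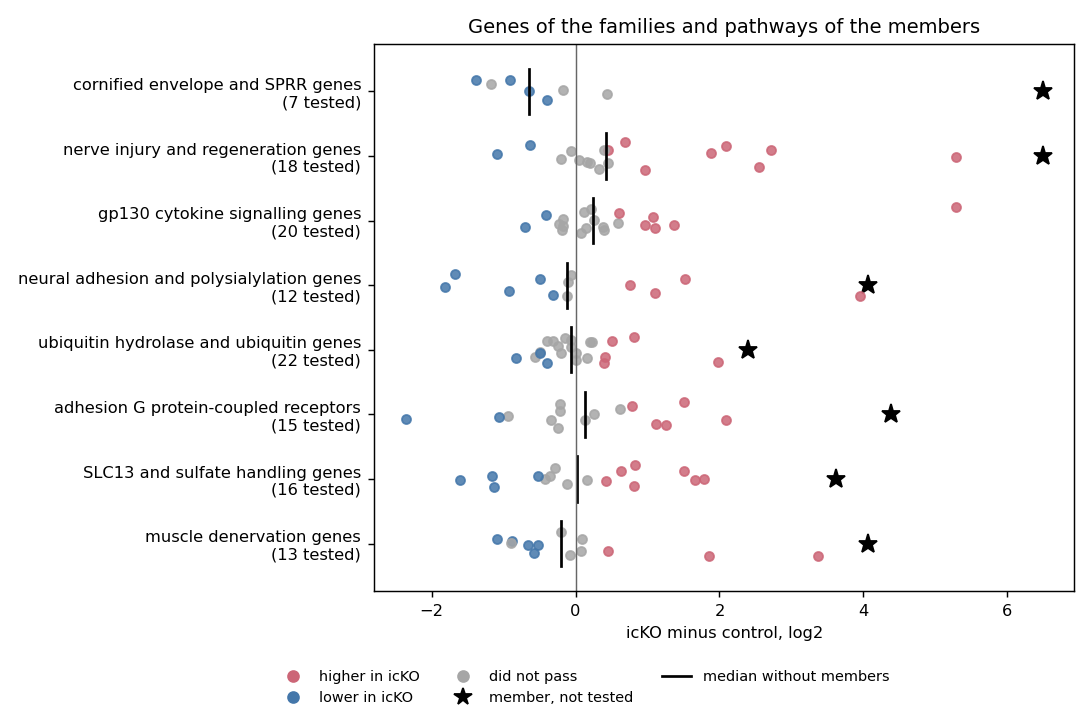
Each point is 1 gene, placed by its icKO minus control difference in log2, with a row for each list of related genes. Red and blue points passed the limma test as higher and lower, grey points did not, black stars are the members, which were not tested, and black bars are list medians without the members, all between -0.64 and 0.42.

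Across all 8 lists, 119 genes other than the members were tested. In each list that holds a member, the member lay above all its tested relatives on the fitted scale, which follows from how the members were chosen. Every list median lay between -0.64 and 0.42, while member differences lay between 2.39 and 6.49. With no filter on dim probes, which adds features to the adjustment, the calls of Krt16, Ctf1, Lifr, Mcam, Nrcam, Slc13a3, Trim63 and Uba1 were lost, at adjusted p between 0.0743 and 0.129 (limma). With the filter of at least 1 array above background, those of Nrcam, Slc13a3 and Trim63 were lost (adjusted p = 0.0903, 0.0809 and 0.05).

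The members also differed in how closely the icKO hearts resembled each other. The SD over the 3 icKO arrays was 0.08 for Ncam1, 0.13 for Slc13a4, 0.14 for Adgra1 and 0.14 for Uchl1, where the median named gene had 0.15. It was 0.64 for Ecrg4 and 1.58 for Sprr1a. In controls the SD was 0.10 for Slc13a4, 0.14 for Uchl1 and 0.19 for Adgra1, beside a median of 0.13, and it was 0.58 for Ncam1, 0.59 for Sprr1a and 0.96 for Ecrg4. The genes with wide control spreads were those with at least 1 undetected control value, with Adgra1 the exception.

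For each member the 3 named genes with the most similar profile over the 6 arrays were found by the root mean square distance of log2 values from the control mean. Sprr1a was nearest to Comp, a cartilage matrix protein, at a distance of 0.75, then Star, a mitochondrial cholesterol carrier, at 0.89 and Chil1, a secreted chitinase-like protein, at 0.97. On icKO 2 Sprr1a stood 8.29 above its control mean and they stood 6.62, 6.79 and 6.46 above theirs. Comp and Chil1 were also highest on icKO 2, by less, and Star was not. Ecrg4 was nearest to Lypd6b, a Ly6-family gene (0.56), Col22a1, a collagen chain of tissue junctions (0.62), and Fmod, the collagen-binding proteoglycan fibromodulin (0.63). Its own excess on icKO 2, 6.08 above the control mean, was larger than the 5.43, 5.04 and 5.03 of these genes.

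The even members had closer neighbours. Adgra1 was nearest to the growth factor gene Gdf6 (0.19), the matrix gene Thbs4 (0.24) and the EGF-family ligand Ereg (0.30). Slc13a4 was nearest to Ccn5, a matricellular protein (0.13), Tnmd, a tendon gene (0.22), and Gpx3, a secreted glutathione peroxidase (0.24). Ncam1 was nearest to Dkk3, a secreted Dickkopf-family protein (0.24), the cartilage collagen Col9a2 (0.26) and Kif1a, a motor of axonal transport (0.30). Uchl1 was nearest to Efhd2, a calcium-binding protein (0.14), Baiap2, a regulator of the actin cortex (0.14), and Cytip, a leukocyte signalling protein (0.15). With quantile normalization 3 of 3 neighbours were found again for Sprr1a and Adgra1, and 2 of 3 for each of the other members. Of the 18 neighbours, Chil1, Lypd6b, Col22a1, Gdf6, Ereg, Tnmd and Cytip were undetected in all controls, where likeness partly reflects background signal. No test was made of these distances.

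**Figure D3:**
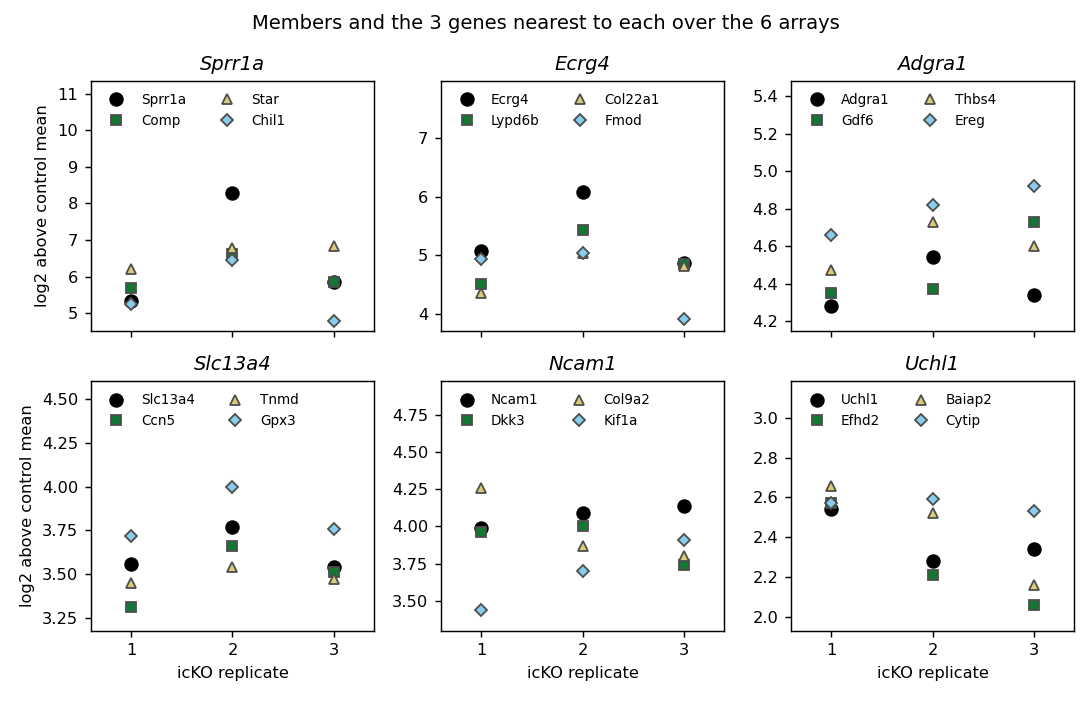
Each panel shows 1 member (black) and its 3 nearest genes on icKO replicates 1 to 3, as log2 above each gene's own control mean, with a separate vertical scale in each panel. On replicate 2 Sprr1a stands at 8.29 and its neighbours between 6.46 and 6.79, and Ecrg4 stands at 6.08 and its neighbours between 5.03 and 5.43.

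Markers of cell types that normally use these genes were examined beside the members, as signals summed over each list in multiples of each array's 75th percentile. The counts of markers called below stand beside 20.2% higher and 27.7% lower among all named genes. Neuron markers summed to 83.1 to 88.1 in controls and 84.2 to 86 in icKO, but Mapt and Snap25 held 85.8% to 88.8% of the sum. Without this pair the sums were 11.7 to 11.8 and 9.51 to 10.2, and with spike-in scaling the full sums were 72.9 to 102 and 111 to 117, higher in icKO. Of 27 neuron markers listed, 10 were not above background on any array (among them Chat, Chga, Elavl3, Gap43, Nefm, Scg2, Slc5a7, Slc6a2 and Syt1), and of 11 tested 3 rose and 5 fell. Keratinocyte markers summed to 13.3 to 14.9 in controls and 9.36 to 9.59 in icKO, of which Trp63 held 88.5% to 91.3%. That share rests on the brighter Trp63 probe, since the other Trp63 probe was not above background on any array. Krt1, Krt5, Dsg3 and Ivl were undetected on every array, and of 4 tested 0 rose and 2 fell. With spike-in scaling the keratinocyte sums overlapped, at 13.1 to 15.6 and 12.5 to 13.4.

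Markers of choroid plexus and leptomeninges summed to 4.6 to 4.74 in controls and 5.16 to 5.55 in icKO. Without Slc47a1 and Foxc1, which held 44.1% to 55.6%, the sums overlapped, at 2.49 to 2.59 and 2.29 to 2.54. Otx2, Kl, Clic6, Kcne2 and Cldn2 were undetected on every array, and of 7 tested 3 rose and 1 fell, with a median difference of -0.03. Schwann cell and glia markers summed to 10.9 to 15.8 and 26.6 to 34, with Erbb3 among the genes undetected on every array, and of 10 tested 4 rose and 1 fell. Without Pmp22 and Egr2, which held 52.8% to 84.8%, those sums overlapped, at 4.98 to 5.14 and 5.12 to 6.1.

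Among markers of cells known to be in the ventricle, those of fibroblasts and macrophages were higher in the same hearts as the members. Fibroblast markers summed to 218 to 351 in controls and 504 to 609 in icKO, and 7 of 10 tested rose and 0 fell. Macrophage markers summed to 71 to 88.6 and 127 to 151, and 8 of 9 rose and 0 fell. Both stayed apart without their largest pair of genes, at 26.3 to 42.7 against 83.8 to 111 and at 13.7 to 21.5 against 42.2 to 58.3. Epicardium and mesothelium markers summed to 4.33 to 7.68 and 7.47 to 13, with overlapping groups, and 2 of 7 rose and 0 fell. Without Msln, which held 1.02% to 42.5%, these sums lay apart, at 3.77 to 4.42 in controls and 7.02 to 8.58 in icKO. They lay apart too with median scaling (4.4 to 7.4 and 7.79 to 15.6) and spike-in scaling (4.23 to 8.96 and 10.4 to 17.1).

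Other ventricle markers were lower or mixed. Cardiomyocyte markers summed to 10700 to 12700 in controls and 6890 to 7650 in icKO, or 11200 to 12400 and 9070 to 10700 with spike-in scaling. Of these 12 markers 10 fell and 0 rose, and all were detected on every array. The differences of Tcap (-0.34) and Tnnt2 (-0.38) were smaller in size than the 0.44 that spike-in scaling adds to every difference. Conduction system markers summed to 11.7 to 11.8 and 7.48 to 8.95, or 5.12 to 6.37 and 5.09 to 5.72 without Irx3, with Hcn4 and Isl1 undetected on every array and 1 of 5 higher and 1 lower. Lymphocyte markers summed to 5.26 to 6.32 and 4.08 to 4.43, with Cd8a, Klrb1c and Ncr1 undetected on every array, and 3 of 4 fell. With spike-in scaling the conduction and lymphocyte sums overlapped between the groups. Endothelial sums were 102 to 114 and 126 to 182, but without Vwf they overlapped, at 88.2 to 97.6 and 72.3 to 89.4, with 1 of 10 markers higher and 3 lower. Smooth muscle and pericyte sums were 108 to 126 and 113 to 116, with 2 of 10 higher and 2 lower, and with spike-in scaling they were 111 to 126 and 149 to 162. The sums without single genes and under other scalings were chosen after the values were seen. The part of any of these cells in the members' rise was not tested.

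The size of the members' differences depended on processing, while their sign stayed the same. All 6 differences were positive in the main setting and under all 15 other settings tried. The members were picked for this rise, so the shared sign is no separate support for it. The wider filters and the replicate block left the differences as they were, and the dark second Adgra1 probe entered none of the settings. Scaling to spike-in probes gave the largest differences for Ecrg4 (5.78), Adgra1 (4.83), Slc13a4 (4.07), Ncam1 (4.52) and Uchl1 (2.83). Normexp background correction gave the smallest for all members, 2.91 for Sprr1a, 2.28 for Ecrg4, 1 for Adgra1, 2.10 for Slc13a4, 2.52 for Ncam1 and 1.89 for Uchl1. That method adds an offset of 50 intensity units to every spot, which by its construction shrinks differences of dim probes most. Leaving out arrays moved Sprr1a between 5.59, without icKO replicate 2, and 7.07, without icKO replicate 1. With the mean of its probes Ncam1 differed by 3.56.

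**Figure D4:**
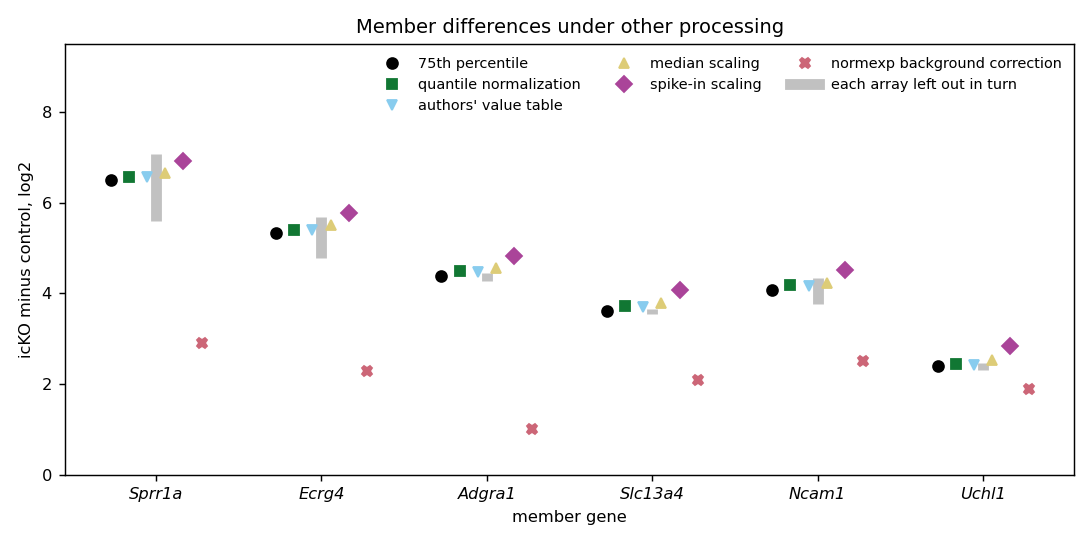
Points show the icKO minus control difference in log2 of each member under the 75th percentile scaling, quantile normalization, the authors' value table, median scaling, spike-in scaling and normexp background correction, and grey bars span the values with each array left out in turn. The normexp points lie lowest for every member, from 1 for Adgra1 to 2.91 for Sprr1a, and all points lie above 0.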

How the data were processed

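Cy3-labelled ventricle RNA was read on 1-colour arrays of design 028005 (build mm9), per the labels' protocols and the file headers. The deposited scanner files give spot intensity on a linear scale from Feature Extraction 11.0.1.1, background-subtracted within each array, per the file headers. Version 9.1 is named in the submitters' processing notes. The authors' deposited value table, also of intensity, correlated with the arrays' log2 values at 0.9995 or more, with column medians of 18.37 to 18.47. Its scaling method is not stated. Its values are single-array intensities, uncentred.

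The log2 of each processed signal was set relative to the 75th percentile of non-control probes on its array. Outlier spots were left out, except where all spots of a probe were flagged. Each member probe had 1 spot, so no member value was left out in this way. Probes well above background on every array of at least 1 group were kept, 26154 of 55681. Names came from RefSeq accessions in a gene table of GRCm38.p6, which named 26582 probes, and each gene stood for its brightest kept probe. Of the members, 5 of 6 matched the RefSeq promoter table. Groups were compared with limma 3.58.1 in R 4.3.3 (lmFit and eBayes, Benjamini-Hochberg over 22283 features, threshold 0.05). The SE of a member comes from its own arrays, that of another gene from limma. The labels call the arrays biological replicates, and p-values measure the spread between these 3 and 3 samples.

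The members, the 8 lists of related genes and the 12 marker lists were chosen with earlier results of these data known. Genes were named by rule: the members, Tead1, their 3 nearest genes, up to 3 genes per list and direction with the smallest p, and the members' closest paralogues. Others, among them the markers named singly, were named after their values were seen. A gene in more than 1 list counts in each, as Gadd45a does. A few genes chosen by this rule are not reported here.

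All arrays lay on 1 slide, controls in its columns 1, 1 and 2 and icKO in columns 2, 3 and 3, so position on the slide can hardly be told apart from group, and no slide block was run. Other settings were quantile, median and spike-in scaling (175 spots), normexp with offset 50, wider filters on dim probes, the authors' value table, the mean of a gene's probes, a replicate block and leaving out each array. Normexp used median spot signals, since the files used here hold no mean signals. The fit was tested on simulated data.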

Additional observations from a re-analysis of the deposited data

How the results depend on the processing

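All 6 member differences stayed positive under the 15 other settings, which follows in part from how the members were chosen. Of all features, median scaling called 3617 lower, spike-in scaling 7110 higher and 1647 lower, and no filter on dim probes 2096 and 3943. Counts of the lists moved as follows, as higher or lower in icKO. Median scaling gave 1 lower gp130 gene, 3 denervation, 2 adhesion and 1 ubiquitin genes. Spike-in scaling gave 1 lower adhesion receptor, 1 higher and 0 lower cornified genes, 11 and 0 gp130 genes, 14 and 0 nerve injury genes, 8 and 0 ubiquitin genes, 0 lower denervation and 2 lower adhesion genes. Quantile normalization and the authors' value table each gave 3 lower adhesion genes and 8 higher and 1 lower ubiquitin genes, and normexp 2 higher adhesion genes. With no filter there were 1 lower adhesion receptor, 2 cornified, 0 gp130, 3 denervation and 3 adhesion genes, and 3 higher ubiquitin genes. The filter of at least 1 array gave 1 lower adhesion receptor and 3 higher ubiquitin genes. The mean of a gene's probes gave 1 higher cornified and 3 lower adhesion genes. Leaving out each array gave 2 to 4 lower cornified, 0 to 2 gp130, 3 to 5 denervation and 3 to 4 adhesion genes, and 3 to 5 higher ubiquitin genes.

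Signs turned with spike-in scaling for Tead1 (0.04), Krt16 (0.04), Lifr (0.03) and Uba1 (0.05), since that scaling adds 0.44 to every difference. Sprr2a2 turned with the mean of its probes (1.33), which disagree.

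The replicate numbers did not pair the samples: deviations of same-numbered arrays correlated at -0.04, -0.12 and -0.01. With the replicate block 2746 features were higher and 4975 lower, with 1 lower gp130 gene and 3 higher ubiquitin genes. Signal near background limits Sprr1a, Ecrg4 and Adgra1 to bounds.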

Other observations

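Other genes shared the pattern of being undetected in all controls and detected in all icKO hearts. By bound, the largest were Egr2, a transcription factor of myelinating Schwann cells also induced early in many stimulated cells, at least 28.7-fold brighter in icKO, Star at least 26.7-fold by 1 of its probes, Col22a1 at least 22.7-fold and Col8a2, a short-chain collagen, at least 20.1-fold. Fgf23, the phosphate-regulating hormone, was at least 17.1-fold brighter, Chil1 at least 11.9-fold and Ptx4 at least 10.3-fold. Like Sprr1a, Egr2 was uneven, but its high heart was another: it lay at -4.18, -4.27 and -3.69 in controls and at 0.29, 0.50 and 3.05 in icKO. Chgb, chromogranin B of neuroendocrine granules, lay at -4.60, -4.59 and -4.57 in controls and at 0.82, -1.07 and -0.68 in icKO, at least 9.88-fold brighter, with icKO 1 highest.

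Genes of catecholamine synthesis and sympathetic identity were lower in the same hearts. Th, the tyrosine hydroxylase gene, lay at -0.19, -0.15 and -0.18 in controls and at -1.10, -1.19 and -1.18 in icKO, and fell by 0.99 ± 0.08 (SE, limma adjusted p = 0.000568). Dbh and Phox2a were lower by -0.85 ± 0.21 and -0.89 ± 0.18 (adjusted p = 0.0181 and 0.0105), calls that spike-in scaling ended (-0.41 and -0.45), and Dbh also lost its call with median scaling (-0.70), when dim probes were kept (adjusted p = 0.0675) and without control replicate 2 (-0.84) or 3 (-0.83). Of the Schwann cell list, Pmp22 and Mbp rose by 1.43 ± 0.23 and 1.21 ± 0.14 (adjusted p = 0.00417 and 0.00151). These genes were picked from the marker lists after their values were seen.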
